A study of Homo sapiens with 4 samples.

Results

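Amino acid transporters of 6 solute carrier families were examined in U87MG, an established human glioblastoma line, in populations that had invaded brain slices and in poorly invasive control populations. The genes were taken by name: every protein-coding gene of the raw count files whose symbol begins with SLC1A, SLC3A, SLC7A, SLC36A, SLC38A or SLC43A and goes on with a number. This gave 40 genes, of which 37 were listed in all 4 files among 29387 genes of any kind. Of these, 25 passed the filter on low counts, among 14231 genes that did. That name rule also takes SLC7A6OS, which lies on the opposite strand of SLC7A6 and is not a transporter; its values are kept apart below.

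All 4 populations come from the same parental line, held for 1 week on organotypic brain slices (living brain sections kept in culture), with FGF and EGF in a medium made for neural stem cells. Control 1 and control 2 are the poorly invasive populations, and invasive 1 and invasive 2 (labelled brain invasive clones) the highly invasive ones. Each was expanded in culture for 3 to 5 days before its polyadenylated RNA was sequenced, as 1 library per population. The study's design pairs control 1 with invasive 1 (pair 1) and control 2 with invasive 2 (pair 2), so there are 2 libraries per group and 1 per group within a pair. No treatment or genotype separates the groups; they differ in whether the cells had invaded the slices. U87MG is a single line grown for many passages in culture, and the sources used here do not name the species of the slices.

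Amino acids cross the plasma membrane through carriers that differ in substrate and in driving force. The SLC7 light chains work only when joined by a disulfide bond to a heavy chain of the SLC3 family, which brings them to the cell surface. Most of them are exchangers: a glutamine molecule brought in by a sodium-coupled carrier of the SLC1 or SLC38 family can leave through an exchanger in return for leucine or another essential amino acid. The SLC36 and SLC43 families move amino acids with protons or down their own gradient, and several members of SLC36 and SLC38 sit on lysosomes, where amino acids feed into control of the growth kinase mTORC1. In brain, the glutamate carriers of the SLC1 family clear glutamate from the synapse, while the cystine carrier SLC7A11 releases glutamate as it takes up cystine.

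Several of these genes are known targets of ATF4, the factor that answers amino acid shortage through the C/EBP-ATF response element. For this reason the stretches around the core of that element (letters TGATGNAA, searched on both strands) are shown. They come from RefSeq windows of 250 bases before to 50 after each annotated start (build GRCh38.p14), which were found for 32 of the 40 genes. Each is written 5′ to 3′ on the gene's strand, with the match in capitals.
SLC1A4: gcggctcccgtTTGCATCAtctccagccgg
SLC1A5: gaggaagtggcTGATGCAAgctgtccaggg
SLC1A3: caggaaatgacTGATGCAAagcagggttaa
SLC38A1: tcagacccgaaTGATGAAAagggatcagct
SLC7A1: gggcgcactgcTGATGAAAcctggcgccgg
SLC3A2: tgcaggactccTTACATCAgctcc
SLC1A3 (chr5:36596357-36596386, plus strand), SLC1A4 (chr2:64989381-64989410, plus strand) and SLC1A5 (chr19:46784893-46784922, minus strand) hold the same letters in the match, SLC1A4 in the opposite orientation. The others lie at chr12:46266502-46266531 (SLC38A1, minus), chr13:29595663-29595692 (SLC7A1, minus) and chr11:62881725-62881748 (SLC3A2, plus). The matches begin 97 (SLC1A5), 220 (SLC1A3) and 7 bases (SLC1A4) before the RefSeq start of their own window, which is 1 of several annotated starts and not the start that the files give for the gene. Among windows of the same length, 3.62% of 35116 hold the core, and 6 of the 54 windows of transporter genes do. A match is a description of the letters, not evidence that a factor binds there, and SLC7A11 had no window in the table.

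For SLC7A8, the gene with the largest fitted difference below, 4 starts are annotated. None of the windows holds that core, and the E-box CACGTG (in 7.26% of all windows, searched on both strands) and the AP-1 letters TGANTCA (in 7.71% of all windows) are shown instead.
SLC7A8 E-box: acaattagaaaCACGTGctcagttcctt
SLC7A8 AP-1: atactgggtggTGATTCAgcagaaacccc
These lie on the minus strand at chr14:23154506-23154533 and chr14:23155437-23155465. Counts are summed over a gene, so which start was used is not measured here.

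Library totals were 13829871 to 17817756 counts. A gene with no count is limited to 0.168 to 0.217 CPM (counts per 1000000 counts of the library), the level of 3 counts in the deepest and the shallowest library, for counting error only. Along the axis of most variance (47.3%), principal component analysis placed the controls at −11 (control 1) and −35.8 (control 2) and the invasive libraries at 23.0 and 23.8; the next axis (34.9%) separated the pairs. All 6 markers fixed for the glioblastoma line were expressed, at a summed 13860 and 12840 CPM in the controls against 11750 and 13180 in the invasive libraries. Of markers of other slice cells, AQP4 (astrocytes), MOG (oligodendrocytes), P2RY12 (microglia) and CLDN5 (endothelium) had no count in any library, and PTPRC (leukocytes) had at most 1. Other members of these lists were expressed: at most 3 counts in every library were found for 3 of 7 neuron, 2 of 7 astrocyte, 4 of 6 oligodendrocyte, 3 of 6 microglia and leukocyte and 1 of 7 endothelial and pericyte markers. Summed levels were 61.6 and 62.6 CPM in controls against 66.3 and 56.7 in invasive libraries for neuron markers, and 776 and 617 against 747 and 740 for astrocyte markers. For oligodendrocyte markers they were 106 and 87.6 against 124 and 89.2, and for endothelial and pericyte markers 43.7 and 48.6 against 49.5 and 38.5, so the groups overlapped in each of these 4 lists. These bulk values cannot tell fewer cells that use a gene from less RNA in each cell.

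No transporter gene passed the adjusted threshold: 0 of 25 were called higher and 0 lower at a Benjamini-Hochberg adjusted p under 0.05 in edgeR's quasi-likelihood test, which took the pair as a block. Over all genes tested, 0.239% were called higher and 0.0351% lower, so few calls would fall in 25 genes at that rate. At an unadjusted p under 0.05, 5 were higher (SLC7A8, SLC38A4, SLC1A4, SLC1A1 and SLC38A10) and 2 lower (SLC38A1 and SLC36A4), against 9.82% and 8.41% of all genes. The count of lower genes lay near that background and the count of higher genes above it. Of the 5 higher genes, SLC38A4 passed the low-count filter only with the help of its invasive libraries. The list itself was not tested. DESeq2 with the same block called 2 of the 25 (SLC7A8 and SLC38A1) and limma-voom 0. The median log2 fold change of the 25 was 0.06, beside 0.01 over all genes, and 0.12 without SLC7A6OS; the median of its absolute value was 0.34, beside 0.19. With 2 libraries against 2, an exact permutation test of a single gene cannot give a two-sided p below 0.333, so none is given.

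The separate libraries show where single genes differed between the groups. In 8 of the 25 both invasive libraries lay above both controls, against 23.7% of all genes, and in 4 both lay below, against 19.7%. The 8 were SLC7A8, SLC38A4, SLC1A1, SLC1A2, SLC1A4, SLC1A5, SLC36A1 and SLC38A10, and the 4 were SLC38A1, SLC36A4, SLC43A3 and SLC7A4. Within pairs, 13 genes were higher in both and 4 lower in both, beside 36% and 29.3% of all genes, and 8 had opposite signs, beside 34.7%. At least 2-fold, 2 genes (SLC7A8 and SLC38A4) were higher in both pairs, against 1.2% of all genes, and 0 were lower in both, against 0.176%. In pair 1 alone 4 were higher by that much (SLC7A8, SLC38A4, SLC1A2 and SLC43A2) and 0 lower, beside 3.23% and 0.899% of all genes. In pair 2 alone 3 were higher (SLC7A8, SLC38A4 and SLC7A11) and 1 lower (SLC43A3), beside 4.36% and 2.05%. SLC38A4 (13 and 7 counts in the controls, 38 and 25 in the invasive libraries) would not have passed the low-count filter on its controls alone. SLC7A4 (14 and 12 against 6 and 9) would not have passed on its invasive libraries alone. Their places in these counts therefore depend on the group where each is higher.

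**Figure D1:**
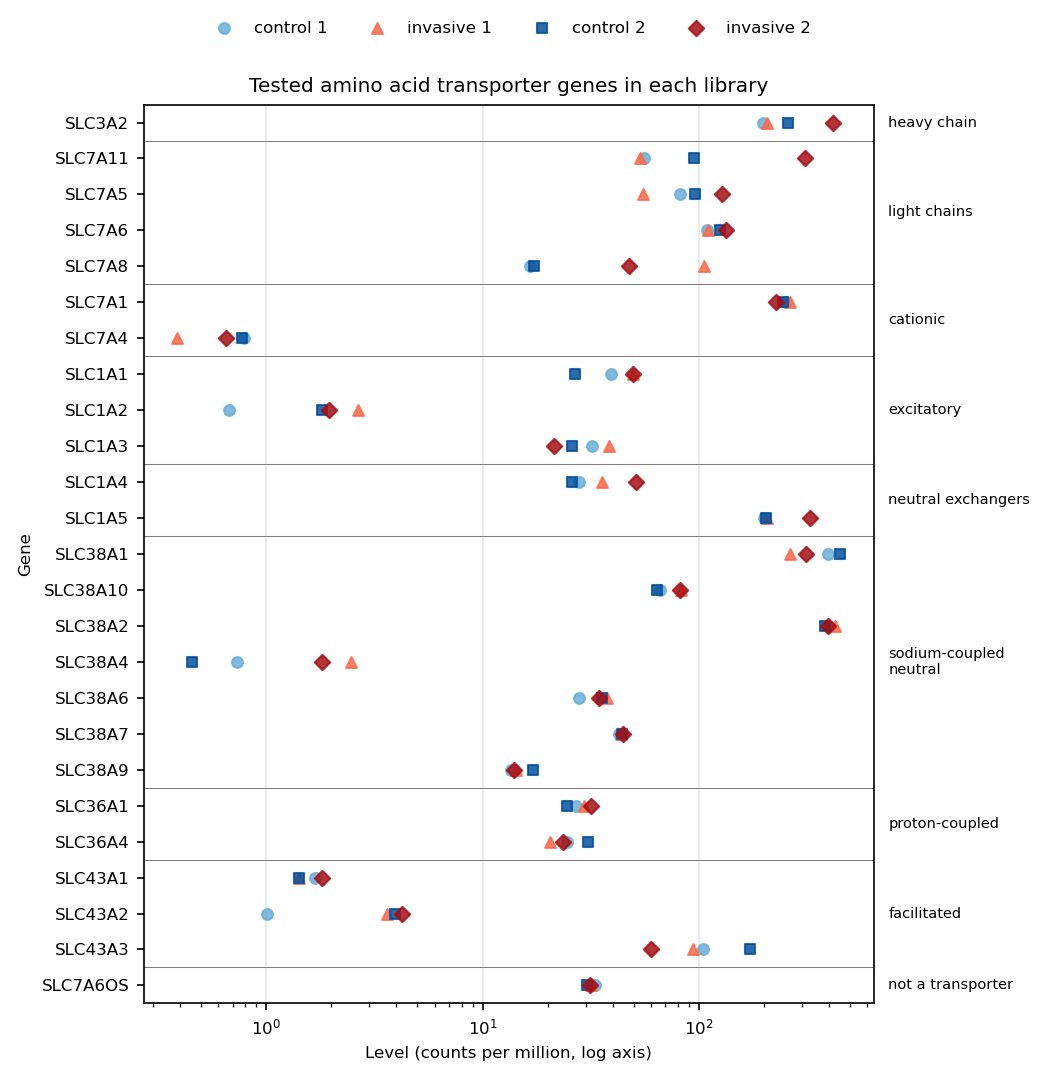
Level of the 25 tested genes in CPM (log axis), 1 point per library, grouped by role. SLC7A8 and SLC38A4 have both invasive libraries to the right of both controls, SLC38A1 has both to the left, and SLC7A11 and SLC3A2 have invasive 2 far to the right with the other 3 libraries together or in between.

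**Figure D2:**
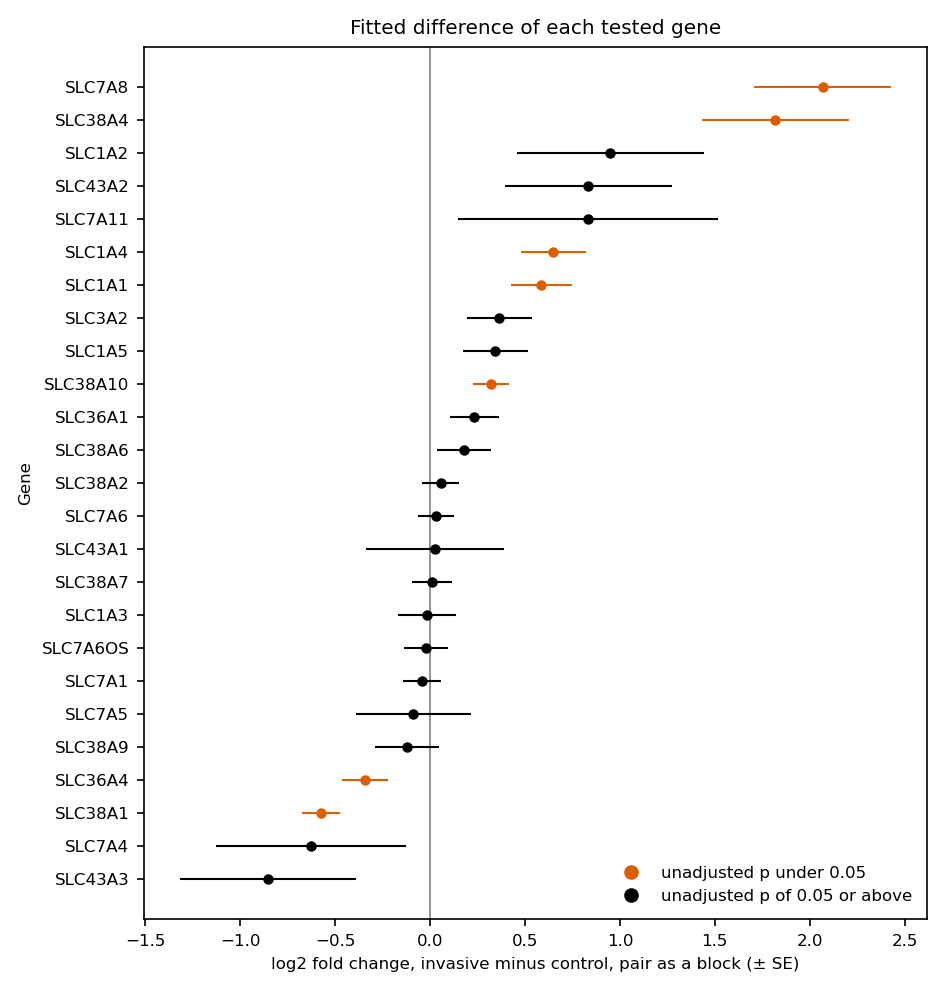
Fitted log2 fold change of each tested gene (invasive minus control, pair as a block), with bars of 1 SE; orange marks an unadjusted p under 0.05. The values run from −0.85 for SLC43A3 to 2.07 for SLC7A8, and none passed the threshold adjusted over all genes.

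Of the 2 heavy chains, SLC3A2 (CD98 heavy chain, the partner of most SLC7 light chains) was expressed and SLC3A1 was near its floor, with 3 to 5 counts in each library. SLC3A2 had 198 and 258 CPM in control 1 and control 2, against 208 and 418 CPM in invasive 1 and invasive 2. Invasive 2 stood alone at the top, and invasive 1 lay between the controls. Within pairs, log2 CPM (prior count 2) differed by 0.07 (pair 1) and 0.70 (pair 2), and the fitted log2 fold change was 0.36 ± 0.17 (SE; edgeR adjusted p = 0.330). Without invasive 2 the fitted value turned to −0.16.

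Among the light chains that pair with SLC3A2, the clearest difference was in SLC7A8 (LAT2), an exchanger of large and small neutral amino acids. It had 16.6 and 17.3 CPM in control 1 and control 2, against 106 and 47.7 CPM in invasive 1 and invasive 2, from 295 and 267 counts against 1640 and 659. The controls lay close to each other and both invasive libraries were far above them, though invasive 1 was also well above invasive 2. The ratio of invasive to control was 6.40 in pair 1 (exact 95% interval 5.65 to 7.27, counting error only) and 2.76 in pair 2 (2.39 to 3.19). The fitted log2 fold change was 2.07 ± 0.36 with an unadjusted p = 0.00978 in edgeR's quasi-likelihood test and an adjusted p = 0.158. The pairs had the same direction and unequal size, 2.67 and 1.46 on the log2 scale. SLC7A8 passed the adjusted threshold with DESeq2 (adjusted p = 0.0269) and in edgeR with no filter (adjusted p = 0.0102). It did not pass with limma-voom (adjusted p = 0.131) or in edgeR with no replicate block (adjusted p = 0.238). Its fitted value stayed between 1.47 and 2.62 when any 1 library was left out.

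A gene of the microglia list, TMEM119, had log2 differences of 2.64 in pair 1 and 1.17 in pair 2, close to those of SLC7A8. It had 39 and 48 counts in the controls against 221 and 99 in the invasive libraries. CD68, another gene of that list, had 1.29 and 1.36 CPM in the controls and was higher at 2.46 and 1.74 CPM in invasive 1 and invasive 2, while CSF1R was lower in both pairs (log2 differences −0.23 and −0.09). The other 3 of the 6 markers found in the files had at most 3 counts in every library, P2RY12 with none and PTPRC with at most 1. The summed level of the 6, most of it CSF1R, overlapped between the groups (24.9 and 15.3 CPM in controls, 35.0 and 19.1 CPM in invasive libraries). Whether both genes come from the same cells was not tested.

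SLC7A11 (xCT), which imports cystine for glutathione synthesis and exports glutamate, differed mainly in pair 2. It had 55.5 and 94.8 CPM in control 1 and control 2, against 53.5 and 309 CPM in invasive 1 and invasive 2. Invasive 2 exceeded every other library, while invasive 1 was the lowest of the 4. Within pairs it differed by −0.05 (pair 1) and 1.70 (pair 2) on the log2 scale, and the fitted log2 fold change was 0.83 ± 0.68 (edgeR adjusted p = 0.637). Without invasive 2 it turned to −0.51. The 2 invasive populations differed from each other by 2.53 on the log2 scale and the 2 controls by 0.77. The antisense gene SLC7A11-AS1 had 1 to 3 counts in each library, beside 828 to 4276 for SLC7A11.

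SLC7A5 (LAT1), which exchanges leucine and other large neutral amino acids, went opposite ways in the pairs. It had 81.5 CPM in control 1 and 55.1 in invasive 1, and 95.8 in control 2 and 128 in invasive 2. The controls lay between the 2 invasive libraries. The log2 differences were −0.56 and 0.41, and the fitted value was −0.09 ± 0.30 (edgeR adjusted p = 0.911). Its pseudogene SLC7A5P1, which can share reads with it, had 1 to 7 counts per library. SLC7A6, an exchanger of cationic for neutral amino acids, was nearly level, at 109, 110, 125 and 133 CPM in control 1, invasive 1, control 2 and invasive 2 (log2 fold change 0.03 ± 0.09). SLC7A7, its close relative, had 6 to 13 counts and SLC7A9, the partner of SLC3A1, at most 2; both missed the filter. SLC7A10 had no count in pair 1 and was not listed in pair 2.

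The make-up of the light chains differed between the groups. In both pairs SLC7A8 had a larger share in the invasive library, and SLC7A5 and SLC7A6 a smaller one. The share of SLC7A11 was smaller in the invasive library of pair 1 and larger in that of pair 2. The 4 tested light chains summed to 263 CPM in control 1 and 325 in invasive 1, and to 333 in control 2 and 618 in invasive 2. As shares of light-chain counts per kilobase of exon, SLC7A8 had 6.90% in control 1 and 35.8% in invasive 1, while SLC7A5 had 42.9% and 23.5%. In pair 2, SLC7A11 had 19.9% in control 2 and 37.95% in invasive 2, SLC7A8 had 5.84% and 9.42%, and SLC7A5 had 40.9% and 31.8%. SLC7A6 had 35.9% in control 1 and 29.4% in invasive 1, and 33.4% in control 2 and 20.8% in invasive 2. In pair 1, SLC7A11 had 14.4% in control 1 and 11.2% in invasive 1. The log2 ratio of summed light-chain counts to SLC3A2 was higher in the invasive library by 0.24 in pair 1 and 0.19 in pair 2. It depended on which genes were summed and how: 0.51 and 0.35 without SLC7A5, and 0.23 and 0.08 with counts divided by exon length before summing. For single genes length cancels: SLC7A5 to SLC3A2 differed by −0.63 and −0.29, and SLC7A8 to SLC7A5 by 3.24 and 1.05. SLC7A11 to SLC3A2 differed by −0.12 in pair 1 and 1.01 in pair 2. With 1 library per group in a pair, these ratios have no test.

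**Figure D3:**
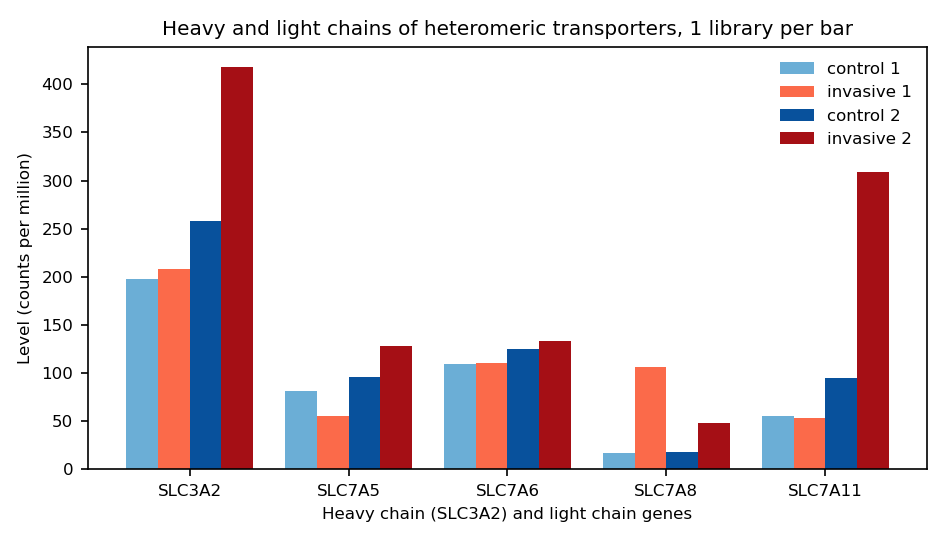
Level in CPM of the heavy chain SLC3A2 and of its 4 tested light chains, 1 bar per library and no error bars because each population has 1 library. SLC7A8 is higher in both invasive libraries than in both controls (106 and 47.7 against 16.6 and 17.3), while SLC7A11 and SLC3A2 stand out in invasive 2 (309 and 418).

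Of the cationic amino acid transporters and their relatives, SLC7A1 and SLC7A4 passed the filter. SLC7A1 (CAT1), the main uptake route for arginine and lysine in many cells, had 253 and 244 CPM in control 1 and control 2, against 264 and 227 CPM in invasive 1 and invasive 2. The controls lay between the invasive libraries, and the fitted log2 fold change was −0.04 ± 0.10 (edgeR adjusted p = 0.865). SLC7A4, a relative of this group, had 14 and 12 counts in the controls against 6 and 9 in the invasive libraries (log2 fold change −0.63 ± 0.50). That value was −0.29 without invasive 1 and −1.02 without invasive 2. It lies across P2RX6, which had 287 to 494 counts per library, and the sources used here do not say if reads were counted by strand, so its counts are uncertain. SLC7A2 and SLC7A14 had at most 1 count and SLC7A3 none.

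Glutamate carriers of the SLC1 family were led by SLC1A1 (EAAT3), the neuronal type that also carries cysteine. It had 39.4 and 26.9 CPM in control 1 and control 2, against 49.7 and 49.7 CPM in invasive 1 and invasive 2. Both invasive libraries stood at the same level above both controls, and it was the controls that differed. The fit gave a log2 fold change of 0.59 ± 0.16 (edgeR unadjusted p = 0.00944, adjusted p = 0.157), with 0.33 in pair 1 and 0.88 in pair 2, and was 0.88 without control 1 and 0.30 without control 2. SPATA6L, which overlaps it, had 11 to 19 counts per library.

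Of the carriers best known from astrocytes, SLC1A3 went opposite ways in the pairs and SLC1A2, at low counts, differed mainly in pair 1. SLC1A3 (EAAT1) had 32.1 and 26.0 CPM in control 1 and control 2, against 38.4 and 21.5 CPM in invasive 1 and invasive 2, so it was higher in pair 1 and lower in pair 2 (log2 differences 0.26 and −0.27). SLC1A2 (EAAT2), which clears most synaptic glutamate in brain, had 12 and 28 counts in control 1 and control 2, against 41 and 27 counts in invasive 1 and invasive 2. Its fitted log2 fold change of 0.95 ± 0.49 (edgeR adjusted p = 0.358) rested on control 1, where it was low: it was 0.34 without control 1 and 1.73 without control 2. SLC1A6 had 1 count in all and SLC1A7 none.

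Both neutral amino acid exchangers of the family were higher in both invasive libraries than in both controls. SLC1A4 (ASCT1), an exchanger of serine, alanine and cysteine, had 27.8 and 26.0 CPM in control 1 and control 2, against 35.8 and 51.2 CPM in invasive 1 and invasive 2. The controls were close to each other, and the gap was wider in pair 2 (log2 difference 0.97) than in pair 1 (0.36). For SLC1A4 the fitted log2 fold change was 0.65 ± 0.17 (edgeR unadjusted p = 0.00921, adjusted p = 0.155), and 0.38 without invasive 2. SLC1A5 (ASCT2), the exchanger best known for glutamine, had 201, 207, 204 and 326 CPM in control 1, invasive 1, control 2 and invasive 2. Its groups did not overlap, but invasive 1 exceeded the controls by a few CPM, and the ratio in pair 1 was 1.03 (exact 95% interval 0.985 to 1.08). The fitted log2 fold change was 0.34 ± 0.17 (edgeR adjusted p = 0.354), and 0.01 without invasive 2.

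SLC1A4, SLC1A5, SLC3A2 and SLC7A11, picked here after their values were seen, each had a larger difference in pair 2 than in pair 1. This was not particular to them: SLC7A5 (−0.56 and 0.41), SLC1A1 (0.33 and 0.88) and SLC36A1 (0.13 and 0.38) also had a larger value in pair 2. Others, such as SLC7A8 (2.67 and 1.46) and SLC43A3 (−0.15 and −1.53), had a smaller one. Whether the effect differs between the pairs could not be tested, because a model with that term has no residual degree of freedom. In the genes listed for the amino acid response to ATF4 pair 1 had a median log2 difference of 0.05 and pair 2 one of 0.28, beside 0.04 and 0.01 over all genes. Of its 23 tested members, 1 was at least 2-fold higher in pair 1 and 5 in pair 2, where 3.23% and 4.36% of all genes were. ATF4 itself, a member of that list, differed by 0.10 in pair 1 and −0.20 in pair 2. The transporters named here are not part of that list. Other genes whose windows hold the core shown above had no larger rise in pair 2. These were SLC1A3 (0.26 and −0.27), SLC7A1 (0.06 and −0.11) and SLC38A1 (−0.58 and −0.52). SLC38A2 had 0.10 and 0.05. A link of these transporters to ATF4 was not tested.

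**Figure D4:**
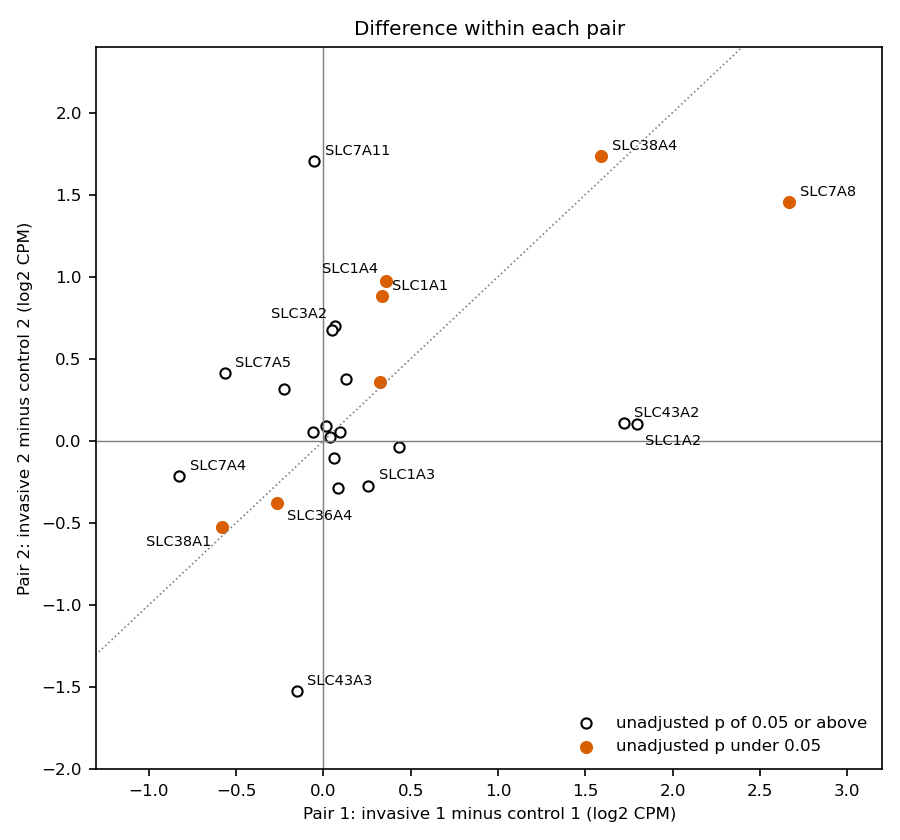
Log2 difference of invasive minus control CPM (prior count 2) of the 25 tested genes, pair 1 on the x axis and pair 2 on the y axis, with equal differences on the dotted line. SLC7A8, SLC38A4 and SLC38A1 lie away from 0 on the same side in both pairs, SLC7A11 (−0.05 and 1.70) and SLC43A3 (−0.15 and −1.53) lie near the y axis, and SLC1A2 and SLC43A2 near the x axis.

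Sodium-coupled neutral transporters of the SLC38 family differed in both directions. SLC38A1 (SNAT1), which takes up glutamine and alanine with sodium, had 393 and 451 CPM in control 1 and control 2, against 263 and 314 CPM in invasive 1 and invasive 2. Both invasive libraries lay below both controls, and the ratio was nearly the same in the pairs, 0.668 (exact 95% interval 0.642 to 0.694) and 0.695 (0.669 to 0.722). The fitted log2 fold change of −0.57 ± 0.10 had the smallest unadjusted p of the 25 genes (0.000949, rank 143 of all genes tested; edgeR adjusted p = 0.0934). SLC38A1 passed with DESeq2 (adjusted p = 0.0265) and in edgeR with raw library totals (adjusted p = 0.0186) or no filter. It did not pass with limma-voom (adjusted p = 0.0854) or with limma on the authors' normalized values (adjusted p = 0.141). Nor did it pass in edgeR with RLE factors (adjusted p = 0.0633) or with no replicate block (adjusted p = 0.294). Its fitted value stayed between −0.71 and −0.46 when any 1 library was left out.

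SLC38A2 (SNAT2), the close relative that cells raise when amino acids are short, had 397, 424, 382 and 396 CPM in control 1, invasive 1, control 2 and invasive 2. The lower invasive library lay between the controls, and its fitted log2 fold change was 0.06 ± 0.10 (edgeR adjusted p = 0.804). The log2 ratio of SLC38A1 to SLC38A2 was −0.01 and 0.24 in the controls against −0.69 and −0.33 in the invasive libraries. SLC38A4 (SNAT4), the third of the system A carriers, was rare: 13 and 7 counts in control 1 and control 2, against 38 and 25 counts in invasive 1 and invasive 2. Both invasive libraries lay above both controls, with ratios of 3.37 (exact 95% interval 1.76 to 6.89) and 3.99 (1.68 to 10.9). Its fitted log2 fold change was 1.82 ± 0.39 (edgeR unadjusted p = 0.00280, adjusted p = 0.113). On its controls alone SLC38A4 would not have passed the low-count filter. A long non-coding gene that overlaps SLC38A4, RP11-96H19.1, had 13 and 11 counts in the controls against 9 and 8 in the invasive libraries.

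These 3 genes are neighbours. Per the files (GRCh38), SLC38A1 lies at chr12:46183063-46270017, SLC38A2 at chr12:46358189-46372867 and SLC38A4 at chr12:46764761-46832408, all on the minus strand. The gap between SLC38A1 and SLC38A2 is 88.2 kb with 0 listed genes in it, and that from SLC38A2 to SLC38A4 is 392 kb with 4, none of them protein-coding. Within this stretch 1 gene was lower, 1 was level and 1 was higher in the invasive libraries by the values above.

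Of the intracellular members, SLC38A10 had 66.1 and 64.0 CPM in control 1 and control 2, against 82.6 and 82.0 CPM in invasive 1 and invasive 2. The difference was small but nearly equal in the pairs (log2 0.32 and 0.36), with a fitted log2 fold change of 0.32 ± 0.09 (edgeR unadjusted p = 0.0130, adjusted p = 0.173). SLC38A9, the lysosomal arginine sensor that signals to mTORC1, had 13.5, 14.4, 17.2 and 14.0 CPM in control 1, invasive 1, control 2 and invasive 2, and SLC38A7, which exports glutamine from lysosomes, 42.7, 43.8, 44.0 and 44.7. Their log2 fold changes were −0.12 ± 0.17 and 0.01 ± 0.11. SLC38A6 had 0.18 ± 0.14, from log2 differences of 0.43 in pair 1 and −0.04 in pair 2, and it overlaps TRMT5 (430 to 556 counts). Of the glutamine carriers of system N, SLC38A5 had 13 and 5 counts in the controls against 3 and 2 in the invasive libraries, and SLC38A3 at most 5; both missed the filter. SLC38A8 and SLC38A11 had no count in pair 2 and were not listed in pair 1.

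The 2 expressed members of the SLC36 family differed in opposite directions. SLC36A4, a carrier of proline and tryptophan, had 24.6 and 30.8 CPM in control 1 and control 2, against 20.4 and 23.6 CPM in invasive 1 and invasive 2. The highest invasive library lay just below the lowest control, and the fitted log2 fold change was −0.34 ± 0.12 (edgeR unadjusted p = 0.0280, adjusted p = 0.224), and −0.19 without control 2. SLC36A1 (PAT1), which exports amino acids from lysosomes, had 26.9, 29.5, 24.5 and 31.8 CPM in control 1, invasive 1, control 2 and invasive 2. Both invasive libraries were above both controls, by a log2 fold change of 0.23 ± 0.13 (edgeR adjusted p = 0.382), and 0.15 without control 2. SLC36A2 and SLC36A3, which neighbour SLC36A1 on chromosome 5, had no count in any library.

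In the SLC43 family of facilitated carriers, SLC43A3, reported to carry purine bases rather than amino acids, had 105 and 172 CPM in control 1 and control 2, against 94.2 and 59.8 CPM in invasive 1 and invasive 2. The groups did not overlap, but pair 1 differed by −0.15 and pair 2 by −1.53 on the log2 scale, and the controls differed from each other by 0.72. The fitted log2 fold change was −0.85 ± 0.46 (edgeR adjusted p = 0.482), and −0.48 without control 2. SLC43A1 (LAT3) and SLC43A2 (LAT4), carriers of leucine and other large neutral amino acids, were low, with 22 to 30 and 18 to 61 counts. SLC43A2 had 18 counts in control 1 and 56 to 61 in the other 3 libraries, so its log2 fold change of 0.83 ± 0.44 rested on that library and was −0.01 without it. SLC7A6OS, the gene that is not a transporter, had 32.9, 31.6, 30.4 and 31.5 CPM in control 1, invasive 1, control 2 and invasive 2 and overlaps SLC7A6.

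Levels of different genes can be compared only per length. On the scale of CPM per kilobase of exon (exon length from GENCODE release 29), the highest transporters in control 1 were SLC1A5 (60.2), SLC38A2 (60.1), SLC38A1 (39.3), SLC3A2 (38.3) and SLC7A1 (32.9). Those at the top were also high in the other 3 libraries, with SLC1A5 and SLC38A2 among the top 3 in each. SLC38A1 ranked 3 and 4 in the controls against 5 and 5 in the invasive libraries. SLC7A8 ranked 18 and 19 of 25 in the controls, at 2.76 and 2.89, and 7 and 12 in invasive 1 and invasive 2, at 17.7 and 7.95. SLC7A11 ranked 13, 16 and 9 in control 1, invasive 1 and control 2 and 4 in invasive 2, at 32.1. SLC1A5 and SLC38A2 in control 1 do not differ beyond the spread of SLC1A5 between the controls (60.2 and 61.2). Exon length was taken over all annotated exons, and the transcripts these cells use may be shorter.

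Lists of other genes that move, sense or use amino acids were counted in the same fit, where 9.82% of all genes were higher and 8.41% lower at an unadjusted p under 0.05. Of 6 tested plasma membrane transporters of other families, 3 were higher at an unadjusted p under 0.05 and 0 lower, among them SLC6A17 (log2 fold change 0.45 ± 0.12) and the glycine transporter SLC6A9 (1.08 ± 0.33). None passed the adjusted threshold, and 16 tested vesicular, lysosomal and mitochondrial amino acid carriers gave 0 in either direction at that unadjusted level. The medians of these lists were 0.24 and −0.05. Of 35 genes of amino acid sensing and mTORC1 control, 4 were higher and 1 lower, near those shares for the higher genes and below them for the lower, with a median of 0.00. Among those with the smallest p were SEH1L (−0.32 ± 0.10) and NPRL3 (0.76 ± 0.26), subunits of the GATOR complexes that set mTORC1 activity.

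In the list of the amino acid response, 1 of 23 passed over all genes: STC2, a secreted glycoprotein, rose from 168 and 179 CPM to 339 and 467 CPM (log2 fold change 1.18 ± 0.13, edgeR adjusted p = 0.0337). With STC2, 6 were higher and 1 lower at an unadjusted p under 0.05, beside 9.82% and 8.41% of all genes. The list's median was 0.04. Among 16 genes for cystine, glutathione and thiols, 2 were higher and 0 lower, with a median of 0.27: CHAC1 (0.98 ± 0.24, also on the ATF4 list), which breaks glutathione down, and GCLC (0.42 ± 0.12), which makes its precursor. The medians of the 16 genes within the pairs were 0.17 and 0.39.

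Among genes that use glutamine and glutamate, 0 of 12 were higher and 3 lower at an unadjusted p under 0.05, while the list's median was 0.06. Over all genes 9.82% were higher and 8.41% lower at that level, the background for this list and those that follow. GFPT2, which spends glutamine on hexosamines, had 305 and 342 CPM in the controls against 201 and 142 in the invasive libraries (log2 fold change −0.95 ± 0.17, edgeR adjusted p = 0.101). PPAT, which uses glutamine to begin purine synthesis, had −0.36 ± 0.10 and the mitochondrial transaminase GOT2 −0.24 ± 0.09. Of 13 branched-chain amino acid genes 2 were higher and 1 lower, with a median of 0.11: the cytosolic transaminase BCAT1 had −0.43 ± 0.11 and the mitochondrial one, BCAT2, 0.64 ± 0.17. Of 19 genes for arginine, polyamines and proline 5 were higher and 1 lower, with a median of 0.10. The lower gene was ODC1, the first enzyme of polyamine synthesis, with 365 and 349 CPM in the controls against 170 and 252 in the invasive libraries (−0.80 ± 0.17). PYCR1 (0.80 ± 0.22) and ASL (0.37 ± 0.12), of proline and arginine synthesis, were higher, and PYCR1 is on the ATF4 list too. Of 15 upstream factors and ligases (median 0.08) 1 was higher and 3 were lower at that unadjusted level. Among the lower genes were MYC (−0.39 ± 0.10), a known activator of glutamine transporter genes, and CD44 (−0.40 ± 0.11), a variant of which binds SLC7A11. CD44 is also a marker fixed for the glioblastoma line, and none of the 15 passed the adjusted threshold.

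**Figure D5:**
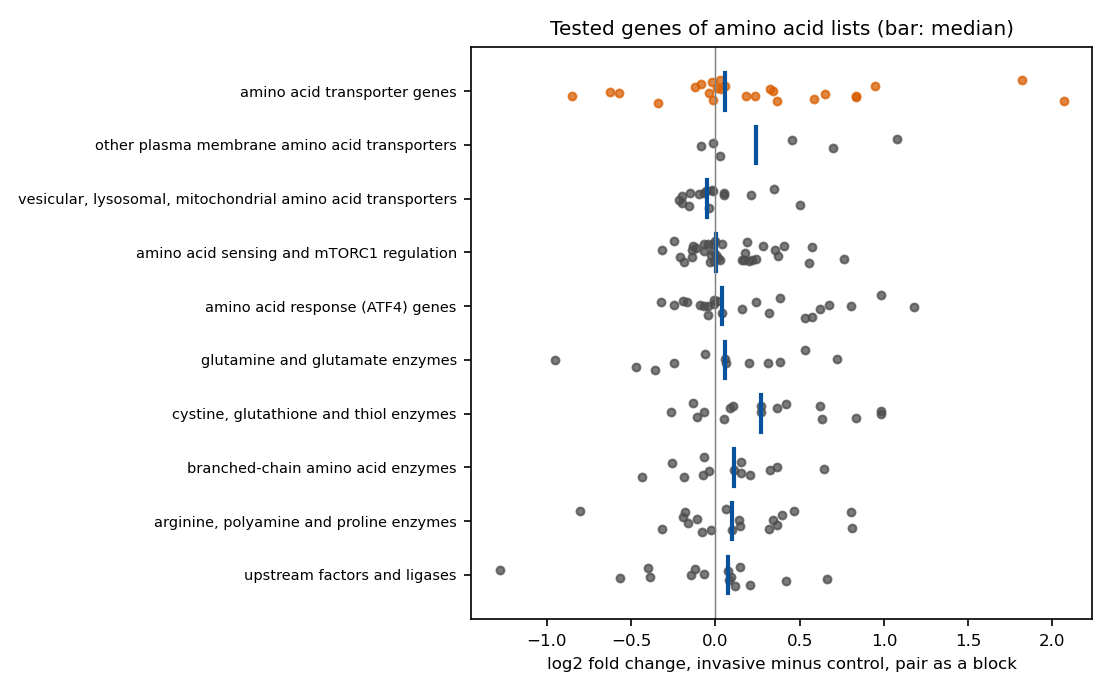
Fitted log2 fold change (invasive minus control, pair as a block) of each tested gene in the transporter list and in 9 other amino acid lists, with points spread vertically for legibility and a blue bar at each median. Medians lie between −0.05 and 0.27, while single transporters reach 2.07.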

How the data were processed

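Polyadenylated RNA of 4 U87MG populations was sequenced from strand-specific libraries, per the labels. Per the file headers, each deposited raw file gives an unnormalized count of reads for every Ensembl gene. The second deposited file of each library holds a whole-number score that the authors normalized by a method not given in the sources used here; it was used in 1 alternative only, as log2(score + 1) over 10252 genes. Tools named in the submitters' processing notes are TopHat2 2.0.12 and Bowtie, HTSeq, DESeq2 and bcl2fastq 1.8.4.

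Of the 29387 genes listed in all 4 raw files, 14231 passed filterByExpr (minimum count 10 and total 15). Groups were compared with TMM factors, a robust prior and the pair as a block in the two-sided quasi-likelihood F test of edgeR 4.0.16, adjusted by Benjamini-Hochberg over these genes at 0.05 (limma 3.58.1, DESeq2 1.42.0, R 4.3.3). SE is the log2 fold change over the square root of F. The block follows the design text; control 2 minus control 1 and invasive 2 minus invasive 1 correlated over genes (r 0.283). With 1 residual degree of freedom, spreads lean on a prior worth 5.45. The invasive populations were derived independently, per the design text; for the controls nothing is stated, so p-values measure the spread between these libraries, which may be technical in part. Genes were named by a rule: members with an unadjusted p under 0.05, the most counted member of each role, and up to 3 per other list; remaining members are given by values, and a few genes of the other lists are not reported here. Members and lists were chosen with earlier results of these data known.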

Additional observations from a re-analysis of the deposited data

Results flagged for a closer look

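In 3 transporter genes the pairs differed in opposite directions beyond counting error, meaning that the exact 95% interval of the ratio of invasive to control counts excluded 1 on opposite sides. The difference between pairs (pair 2 minus pair 1, log2) was 0.98 for SLC7A5, −0.53 for SLC1A3 and −0.17 for SLC7A1. The within-pair values were −0.56 and 0.41, 0.26 and −0.27, and 0.06 and −0.11. For SLC7A1 the interval in pair 1, scaled by raw library totals, only just excluded 1 (1.001 to 1.09). Its log2 difference in pair 1 was 0.029 with TMM effective library sizes, so its flag depends on the library scaling. These differences were not tested, because each pair has 1 library per group and counting error is only part of the spread between libraries.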

How the results depend on the processing

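With no replicate block, edgeR called 2 genes higher and 0 lower over all genes, DESeq2 with the block 142 and 29, RLE factors 80 and 9, raw totals 368 and 91, no filter 760 and 693, and the authors' normalized values 0 and 0, where the block gave 34 and 5. Leaving out 1 library gave 4 (without control 2) to 83 (without control 1) higher and 0 (without control 2 or invasive 2) to 87 (without control 1) lower, and 8 higher without invasive 2. Transporters called higher and lower numbered 1 and 1 with DESeq2, 1 and 1 with raw totals (SLC38A4 and SLC38A1), 5 and 1 with no filter (SLC1A1, SLC1A4, SLC3A2, SLC7A8, SLC38A4 and SLC38A1), and 0 to 1 and 0 without 1 library. At an unadjusted p under 0.05 they numbered 9 higher with no filter, 1 lower with DESeq2, and 2 to 7 and 1 to 2 without 1 library. Their median was 0.0103 with no filter, 0.10 with the authors' values and −0.0093 to 0.16 without 1 library.

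The light-chain ratio to SLC3A2 was 0.51 and 0.35 without SLC7A5, and in pair 2 it was 0.0755 with counts divided by exon length, an alternative chosen after seeing the data. Of 266 values of single genes under an alternative, 232 kept their direction and side of the threshold, 12 came to pass it and 22 changed sign. With no replicate block SLC1A3 had 0.0245 and SLC7A5 0.0262; SLC1A3 also had 0.0138 with limma-voom and 0.0035 with raw totals, and SLC38A7 −0.0112 with no filter. Without 1 library the ranges that crossed 0 were −0.46 to 0.38 for SLC1A3, −0.16 to 0.85 for SLC3A2, −0.16 to 0.062 for SLC7A1, −0.71 to 0.50 for SLC7A5, −0.11 to 0.16 for SLC7A6, −0.10 to 0.0465 for SLC7A6OS, −0.51 to 2.02 for SLC7A11, −0.0045 to 0.10 for SLC38A2, −0.0093 to 0.0182 for SLC38A7, −0.28 to 0.0353 for SLC38A9, −0.16 to 0.19 for SLC43A1 and −0.0134 to 1.92 for SLC43A2. The cause was not tested. The replicate block changed no adjusted call among the transporters. All 150 within-pair differences under another prior count or library scaling, and both counts of groups that do not overlap, kept their values within counting error or 1.5 times. Values near 0 could still change sign: with TMM effective library sizes SLC7A6 in pair 1 went from 0.0139 to −0.0196. SLC38A7 in pair 1 went from 0.0372 to 0.0038. The counts of genes by sign in both pairs therefore depend on the scaling. Fits without a library have no block and take the lone library of a group to vary like the other group. SLC1A2, SLC7A4, SLC38A4, SLC43A1 and SLC43A2 had at most 61 counts in any library, which limits their precision.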
